A study of Mus musculus with 20 samples.

Results

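Car1, Car4, Slc26a3, Krt20, Lgals4, Phgr1, Muc2, Zg16, Reg3b and Reg3g are genes of the differentiated cells that line the colon, and their transcripts were followed here in eosinophils and macrophages sorted from mouse colon. The 10 genes were taken by name from both expression tables of the study, which hold 50573 gene names, and all 10 were in both tables and passed the filter on low values in both cell types. Car1, Car4, Slc26a3, Krt20, Lgals4 and Phgr1 belong to the absorptive cells at the surface, Muc2 and Zg16 to the mucus-filled goblet cells, and Reg3b and Reg3g are secreted antimicrobial lectins.

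The colon epithelium renews itself from stem cells at the base of the crypt, whose daughters divide, move up and mature into absorptive colonocytes or goblet cells before they are shed. Mature colonocytes take up chloride in exchange for bicarbonate through the transporter Slc26a3, with carbonic anhydrases such as Car1 and Car4 interconverting carbon dioxide and bicarbonate, while goblet cells build the mucus layer from the mucin Muc2. The Reg3 lectins bind and kill bacteria and are induced in the epithelium by interleukin-22 and by bacterial colonization.

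The study compared gene expression in eosinophils, granulocytes that reside in the gut wall, and macrophages, its resident phagocytes, between naive colon and colonic tumors. All mice were C57BL/6, and the naive ones are labelled wild type. The groups were eosinophils of naive colon (2 libraries), eosinophils of tumors (7), macrophages of naive colon (5) and macrophages of tumors (6), with the tumors grown in mice after what the labels term CAC induction. The colons were digested with enzymes and the cells sorted by flow cytometry. The sources used here give no ages, inducing agents or sorting markers. They do not say either that the libraries of a group came from separate animals, so the p-values measure the spread between these libraries, which may be technical. Naive and tumor samples came from different mice, and the tissue (naive colon or tumor) changes together with the induction, so the effects of the induction and of the tumor cannot be told apart.

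Values are normalised reads, that is the reads of a gene divided by a size factor of the library, and the depth recovered from them was 1477255 to 8520874 reads per library. Each sort carried more of its own markers than the other sort did. A list of 12 macrophage markers summed to 19489 to 33619 CPM (reads scaled to equal library totals) in macrophages and 809 to 1494 in eosinophils. The 12 eosinophil markers summed to 958 to 9783 in eosinophils and 23.3 to 94.2 in macrophages. All 4 groups also carried 15 genes used as general markers of gut epithelium (the pan-epithelial list). Some, such as Epcam, Krt8 and Cdh1, are broadly epithelial, and others, such as Cdh17 and Cdx2, are intestinal. They summed to 999 to 1475 CPM in naive eosinophils, 1155 to 4176 in tumor eosinophils, 258 to 1708 in naive macrophages and 1002 to 1762 in tumor macrophages. At least 14 of these 15 genes had a read in every library, so the libraries labelled eosinophils and macrophages were not free of epithelial RNA. In tumor eosinophil libraries 1, 2, 3 and 7 the pan-epithelial sum (4176, 3478, 4085 and 1923) exceeded the eosinophil marker sum (1398, 958, 1029 and 1283). In tumor libraries 4, 5 and 6 and both naive ones it was lower. The sum of a neutrophil marker list, mostly Retnlg, exceeded the eosinophil sum in every eosinophil library, as in naive library 1 (6486 against 2196). That of B and plasma cell markers exceeded it in all but tumor library 4. The macrophage marker sum also exceeded the eosinophil one in tumor libraries 1 and 2 (1494 and 1417). In such bulk samples, fewer epithelial cells and less RNA per epithelial cell cannot be told apart. Mitochondrial genes took 15.2 to 35.2% of the reads of tumor eosinophils, with libraries 2 and 3 highest, against 17.9 to 24.6% in naive eosinophils and 8.24 to 15.9% in macrophages.

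Some markers of other cell types also differed between naive and tumor libraries. Over all genes tested, 17.1% were called in macrophages (8.5% higher and 8.59% lower) and 4.61% in eosinophils (2.42% higher and 2.19% lower). The macrophage counts of 1 of 12, 1 of 6 and 2 of 12 given below are not far from these shares. The 12 neutrophil markers summed to 44.7 to 70.2 CPM in naive macrophages and 140 to 882 in tumor macrophages, with 6 of the 10 tested called higher. In eosinophils they summed to 6486 to 11539 in naive and 4820 to 14608 in tumor libraries, of which Retnlg, not itself called, made up 98.2 and 86%. With 5 of 12 called higher, the list's median log2 change was 2.62. Stromal and endothelial markers summed to 783 to 3270 in naive macrophages and 307 to 743 in tumor macrophages, with 5 of 11 called lower. Of their own markers, eosinophils had 3 of 11 tested called lower in tumors and macrophages 2 of 12; macrophage markers in eosinophils had 4 of 10 called higher and 1 lower. B and plasma cell markers summed to 4497 and 7571 in naive eosinophils and 7233 to 17736 in tumor eosinophils. Their median log2 change was 1.23 and 11 of 12 were positive; limma called none, with 5 at an unadjusted p under 0.05, edgeR and limma-voom called none and DESeq2 called 4 higher. In naive and tumor macrophages they summed to 18446 to 76459 and 9440 to 73228, with 1 of 12 called higher. T and NK cell markers summed to 53.7 and 72.8 in naive and 73.5 to 207 in tumor eosinophils, just without overlap, with none of 10 called by limma (2 at an unadjusted p under 0.05), edgeR, DESeq2 or limma-voom. In macrophages they were lower in tumors without overlap, at 468 to 599 against 133 to 266. Cd4, which gut macrophages can also express, held 88.6 and 67.6% of that sum and was the 1 of 6 called (log2 change -2.12, adjusted p = 1.74e-05). The part of these cells in the values of the 10 genes was not tested.

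The bases just before the transcription start of 4 of the genes are printed here because they belong to the genes whose values changed most (Car4 and Slc26a3) and to the Reg3 pair, of which Reg3g was called and Reg3b was not. They are the 170 bases upstream of the RefSeq start (GRCm38.p6), 5′ to 3′ on the gene's strand, taken from a RefSeq table that held 8 of the 10 genes. Capitals mark matches to a TATA box (TATAAA) or to the STAT motif TTCNNNGAA, each searched on both strands. The windows are chr6:78370715-78370884 on the plus strand for Reg3b, chr6:78468875-78469044 on the minus strand for Reg3g, chr11:84957584-84957753 on the plus strand for Car4 and chr12:31438049-31438218 on the plus strand for Slc26a3. Those of Reg3b and Slc26a3 lie inside the longer genes that GENCODE annotates.
Reg3b: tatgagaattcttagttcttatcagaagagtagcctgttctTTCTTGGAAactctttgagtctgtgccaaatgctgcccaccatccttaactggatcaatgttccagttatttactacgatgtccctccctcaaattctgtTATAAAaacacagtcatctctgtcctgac
Reg3g: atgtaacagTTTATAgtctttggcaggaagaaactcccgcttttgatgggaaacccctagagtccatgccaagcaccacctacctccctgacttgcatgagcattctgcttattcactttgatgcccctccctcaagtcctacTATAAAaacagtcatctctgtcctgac
Car4: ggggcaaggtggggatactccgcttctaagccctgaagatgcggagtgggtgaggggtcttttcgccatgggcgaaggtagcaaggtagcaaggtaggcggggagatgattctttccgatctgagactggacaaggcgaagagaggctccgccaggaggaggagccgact
Slc26a3: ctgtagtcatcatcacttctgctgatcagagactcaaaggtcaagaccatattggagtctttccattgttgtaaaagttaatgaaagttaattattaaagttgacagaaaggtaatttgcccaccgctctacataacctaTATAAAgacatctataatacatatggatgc

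Reg3b and Reg3g had a TATA box at nearly the same place, 29 and 27 bases before the start, and Slc26a3 had one 30 bases before it. Such a box, or its reverse, was in 8.4% of the 32851 promoter windows of the same length. Reg3g also held its reverse, TTTATA, 161 bases before the start. Reg3b alone of these 4 held the STAT motif, as TTCTTGGAA 129 bases before the start; 4.6% of all windows held it. The Car4 window held neither. A CDX motif (TTTATG) and a GATA motif (AGATAA) were also searched on both strands, were in 7.2% and 6.5% of all windows and were in none of these 4. Among the windows not printed, that of Phgr1 held a STAT motif 98 bases before the start. Krt20 had a TATA box 29 bases before it, and Muc2 a GATA motif at 169 and 159 bases. Over 168 aligned bases, the Reg3b and Reg3g windows were 69.0% identical, and their longest transcripts were 74.7% identical with at most 35 identical bases in a row, so reads from the parts they share could have been counted for either gene. A match is only a run of letters, and nothing here measures the binding of a factor.

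Of the absorptive genes, the ion and bicarbonate genes Car1, Car4 and Slc26a3 were lower in tumors in both sorts, by 5.28 to 28.0 times, while Krt20, Lgals4 and Phgr1 were not called in either. The tests were limma on log2(normalised reads + 1), with Benjamini-Hochberg adjustment over all genes tested and a call at an adjusted p under 0.05; the scale understates the change of low values. In eosinophils 4 of the 10 genes were called (3 lower and Reg3g higher), against 4.61% of the 12967 genes tested (2.19% lower and 2.42% higher). In macrophages the same number was called, again 3 lower and Reg3g higher, against 17.1% of 11520 genes tested (8.59% lower and 8.5% higher). The filter there asked for 10 or more in at least 5 libraries. Tumor medians of Car4 and Slc26a3 (4.475 and 8.145) lay under 10, so neither could have passed on tumor libraries alone. Both genes could thus be tested for a fall more readily than for a rise. Every tumor library lay on one side of every naive library for 6 of the 10 genes in eosinophils, where this held for 17.1% of all genes tested, and for 4 of the 10 in macrophages, where it held for 10.7%.

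**Figure D1:**
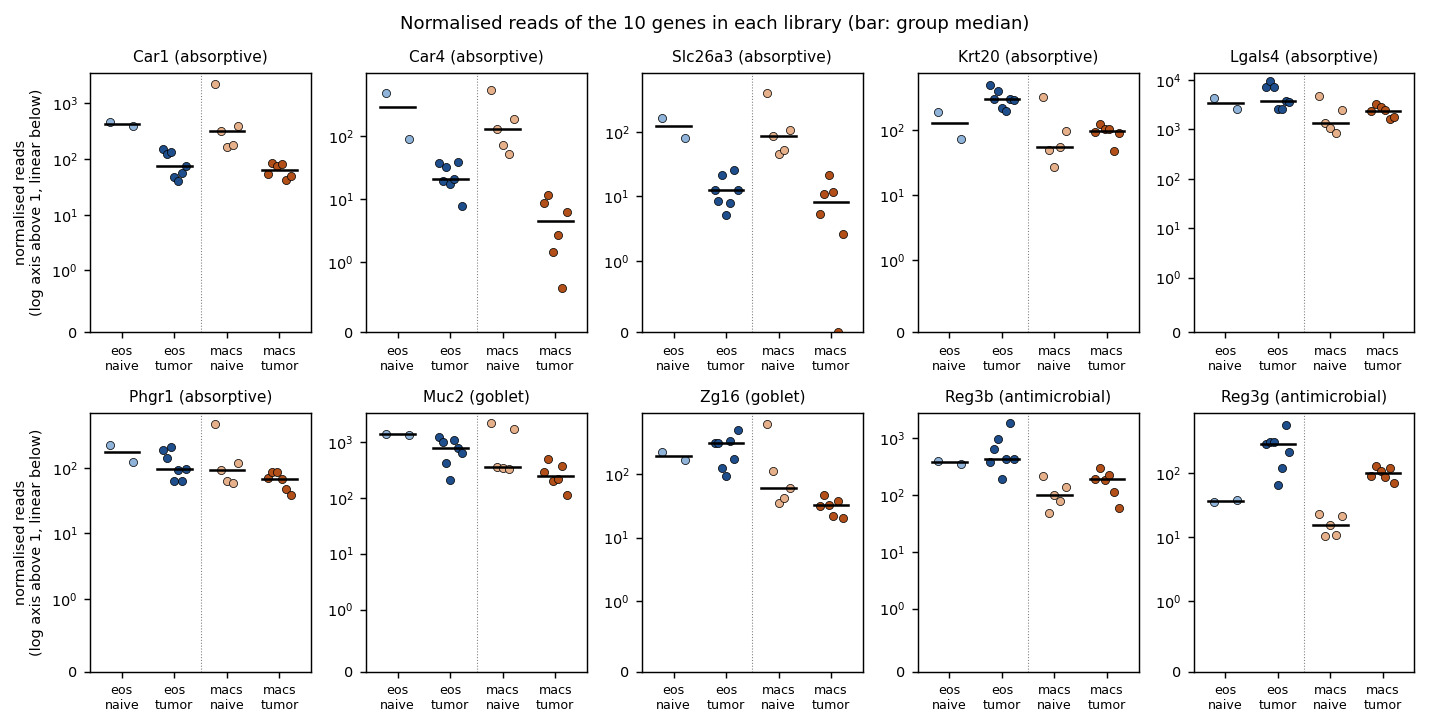
Normalised reads of the 10 genes (vertical axis, log above 1 and linear below) in each of the 20 libraries by group (horizontal axis; eos, eosinophils; macs, macrophages); each point is a library and each bar a group median. Car1, Car4 and Slc26a3 drop between naive and tumor libraries in both cell types and Reg3g climbs, while the points of Lgals4 overlap between groups.

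Car1, a cytosolic carbonic anhydrase of colonocytes (chromosome 3, 14766216 to 14808368, minus strand, GRCm38, overlapping a processed pseudogene), gave 455 and 397 normalised reads in naive eosinophils and 40.1 to 153 in tumor eosinophils, with a median of 74.3. In naive macrophages it gave 2186, 316, 165, 178 and 398 normalised reads, and in tumor macrophages 41.4 to 85.7, with a median of 64.1. No tumor library reached the lowest naive library of its cell type. The log2 change was -2.40 ± 0.50 (SE; limma adjusted p = 0.018) in eosinophils, a 5.28-fold lower level, and -2.61 ± 0.51 (adjusted p = 0.0022) in macrophages, 6.09-fold lower.

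Car4, the carbonic anhydrase anchored to the outer face of the brush border (chromosome 11, 84957786 to 84966044, plus strand), gave 479 and 89.4 normalised reads in naive eosinophils and 7.74 to 38.7 in tumor eosinophils, with a median of 20.4. Naive macrophages held 524, 127, 72.1, 50.7 and 182, and tumor macrophages 0.63 to 11.7, with a median of 4.47. The naive eosinophil libraries lay far apart, and yet the groups did not overlap. On the log2 scale the change was -3.18 ± 0.66 (adjusted p = 0.018) in eosinophils and -4.81 ± 0.61 (adjusted p = 6.34e-05) in macrophages by limma. The second is a 28.0-fold lower level and the largest drop among the 10 genes, and it rests on 1 to 17 reads in each tumor macrophage library.

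Slc26a3, the chloride and bicarbonate exchanger of the colonocyte surface (chromosome 12, 31390871 to 31473917, plus strand, overlapping a processed pseudogene), gave 165 and 79.7 normalised reads in naive eosinophils and 5.15 to 25.8 in tumor eosinophils, with a median of 12.4. Naive macrophages held 408, 86.5, 45.0, 52.3 and 106. In tumor macrophages the highest library held 21.5 and the median was 8.14, and library 5 had no read, which allows up to 1.88 normalised reads (3 reads; counting error only). The groups did not overlap in either cell type. The log2 change was -3.17 ± 0.59 (limma adjusted p = 0.0116) in eosinophils and -3.92 ± 0.71 (adjusted p = 0.00133) in macrophages.

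The falls in eosinophils rested on a naive group of 2 libraries. Leaving out either leaves a single naive library, so that the tumor libraries alone give the spread and the lone library is assumed to vary like them. Without naive library 1, limma called none of the 3: the log2 changes were then -2.30 for Car1 (adjusted p = 0.0668), -1.98 for Car4 (0.14) and -2.65 for Slc26a3 (0.0739). Without naive library 2 the changes were -2.50 for Car1 (adjusted p = 0.159), -3.69 for Slc26a3 (0.0733) and -4.38 for Car4 (0.0262), so that the calls of Car1 and Slc26a3 ended though their changes were no smaller than with both libraries. With both naive eosinophil libraries, limma-voom called 2 of the 6 absorptive genes lower in eosinophils, where limma, edgeR and DESeq2 called 3. In macrophages all 3 calls remained whichever library was left out. Naive macrophage library 1 stood highest for all 3 genes, and without it the log2 change was -1.98 for Car1, -4.32 for Car4 and -3.41 for Slc26a3.

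Krt20, a keratin of mature surface cells (chromosome 11, 99428403 to 99438150, minus strand), gave 189 and 72.5 normalised reads in naive eosinophils and 197 to 498 in tumor eosinophils, with a median of 299. All 7 tumor libraries thus lay above both naive ones, opposite to Car1, Car4 and Slc26a3, but the log2 change of 1.35 ± 0.41 did not pass the limma test (adjusted p = 0.0825). It passed with DESeq2 (1.27, adjusted p = 0.0423). The size turned on the naive pair: by limma it was 2.04 (adjusted p = 0.0257) without naive library 1 and 0.66 (adjusted p = 0.701) without naive library 2. In macrophages the groups overlapped, with 319, 49.9, 27.0, 54.9 and 97.1 in naive libraries against 47.7 to 122 (median 98.5) in tumor libraries, and the log2 change was 0.26 with a 95% interval of -0.72 to 1.25 (adjusted p = 0.747).

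Lgals4, a galectin of the apical membrane of colonocytes (chromosome 7, 28833854 to 28841708, plus strand), carried most reads of the 6 absorptive genes in every group, between 62.6 and 91.0% of them on average; these are counts of transcript ends. It gave 4262 and 2591 normalised reads in naive eosinophils and 2584 to 9407 in tumor eosinophils, with a median of 3808. In naive macrophages it gave 4708, 1356, 1086, 855 and 2483, against 1622 to 3322 (median 2419) in tumor macrophages. Naive and tumor libraries overlapped in both cell types. Its log2 change was 0.48 (95% interval -0.59 to 1.54, adjusted p = 0.64) in eosinophils and 0.44 (-0.31 to 1.2, adjusted p = 0.435) in macrophages.

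Phgr1, a small proline-, histidine- and glycine-rich protein of the intestinal epithelium (chromosome 2, 118772769 to 118778165, plus strand), gave 223 and 126 normalised reads in naive eosinophils and 62.4 to 208 (median 96.0) in tumor eosinophils. Naive macrophages held 478, 93.1, 63.1, 58.0 and 118, and tumor macrophages 39.1 to 88.4 (median 68.8). The groups overlapped in both. The log2 change was -0.60 (95% interval -1.63 to 0.44, adjusted p = 0.53) in eosinophils and -0.83 (-1.75 to 0.09, adjusted p = 0.213) in macrophages.

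Because both sorts held epithelial RNA in unequal amounts, the mix of these genes was also read against Lgals4, whose own groups overlapped. For each 100 Lgals4 reads there were 10.7 to 15.3 Car1 reads in naive eosinophils and 1.32 to 2.14 in tumor eosinophils, and 15.2 to 46.4 in naive macrophages against 2.27 to 3.27 in tumor macrophages. Phgr1 was apart by less, with 4.85 to 5.24 and 1.5 to 3.67 in naive and tumor eosinophils and 4.77 to 10.2 and 2.18 to 3.05 in naive and tumor macrophages. Car4 and Slc26a3 were likewise apart between naive and tumor libraries in both cell types, and Krt20 overlapped, with 2.80 to 4.44 and 3.17 to 8.44 in naive and tumor eosinophils. These ratios are given as a description, with no test.

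Of the goblet cell genes neither was called in either sort. Muc2, the gel-forming mucin (chromosome 7, 141690340 to 141754693, plus strand), gave 1383 and 1337 normalised reads in naive eosinophils and 211 to 1240 (median 774) in tumor eosinophils, so that all 7 tumor libraries lay below both naive ones. The log2 change of -1.04 ± 0.54 did not pass the limma test (adjusted p = 0.318). Naive macrophages held a high pair (2215 and 1703) and 3 lower libraries (360, 341 and 326), and tumor macrophages held 113 to 486 (median 249.1), overlapping the lower 3. This gave a log2 change of -1.45 ± 0.51 (limma adjusted p = 0.0659); edgeR, run on the reads recovered from the table, did call it (-1.85, adjusted p = 0.0242), as did DESeq2 (adjusted p = 0.0184), and limma did without naive library 3 (adjusted p = 0.0479), naive library 4 (0.0406) or tumor library 2 (0.0442). Without either library of the high pair, naive 1 or 5, the limma change was smaller, at -1.03 (adjusted p = 0.153) and -1.12 (0.168).

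Zg16, a lectin of the mucus that binds Gram-positive bacteria (chromosome 7, 127050156 to 127087328, minus strand, overlapping 2 noncoding genes on the other strand), gave 219 and 164 normalised reads in naive eosinophils and 91.9 to 501 (median 310) in tumor eosinophils. These overlapped, and the log2 change was 0.26 (95% interval -0.92 to 1.44, adjusted p = 0.833). In naive macrophages it gave 603, 111, 34.7, 41.3 and 60.7, against 20.4 to 47.0 (median 32.2) in tumor macrophages. The log2 change there was -1.53 ± 0.56 (limma adjusted p = 0.0753), and edgeR (-2.42, adjusted p = 0.0165) and DESeq2 (adjusted p = 0.00691) called it, as did limma without naive library 3 (-1.87, adjusted p = 0.0403) or 4 (-1.80, 0.049). Without naive library 1, the highest, the limma change was -0.85 (adjusted p = 0.0952). For each 100 Muc2 reads, Zg16 had 12.3 to 15.8 in naive eosinophils and 21.9 to 80.4 in tumor eosinophils, while naive (3.57 to 30.9) and tumor (9.67 to 18.1) macrophages overlapped.

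The antimicrobial pair split: Reg3g rose 5.86 and 6.13 times in tumors in eosinophils and macrophages, and Reg3b, its neighbour on chromosome 6, was called in neither. Reg3g (78466269 to 78468872, minus strand) gave 36.0 and 38.6 normalised reads in naive eosinophils and 65.3 to 567.7 (median 286) in tumor eosinophils. Naive macrophages held 23.2, 10.3, 15.4, 10.98 and 21.2, and tumor macrophages 71.0 to 129 (median 100). Every tumor library exceeded every naive library of its cell type. The log2 change was 2.55 ± 0.61 (limma adjusted p = 0.0344) in eosinophils and 2.62 ± 0.24 (adjusted p = 4.3e-06) in macrophages. The macrophage call remained under every library left out. The eosinophil call ended without naive library 1 (2.50, adjusted p = 0.104) or 2 (2.60, 0.266) and without tumor library 1 (adjusted p = 0.0605), 3 (0.0559) or 7 (0.056), with limma-voom (2.64, adjusted p = 0.225), and without tumor libraries 2 and 3, those with the most mitochondrial reads (2.36, adjusted p = 0.0733).

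Reg3b (78370657 to 78373466, plus strand) gave 408 and 350 normalised reads in naive eosinophils and 191 to 1841 (median 439) in tumor eosinophils. Naive macrophages held 218, 49.4, 102, 80.0 and 140, against 60.0 to 306 (median 189) in tumor macrophages. The groups overlapped in both, with log2 changes of 0.56 (95% interval -0.79 to 1.90, adjusted p = 0.667) and 0.61 (-0.24 to 1.46, adjusted p = 0.327). Reg3g made up more of the pair in tumors in both sorts, as a description with no test: for each 100 Reg3b reads there were 8.82 and 11 Reg3g reads in naive eosinophils and 27.9 to 75.1 in tumor eosinophils, and 10.7 to 20.9 in naive macrophages against 39.4 to 118 in tumor macrophages. From library to library the deviations of the 2 genes were correlated, with Pearson's r of 0.776 between their deviations from the group means over 20 libraries, the highest r of either with any of the 10; points of one library share its depth and its load of epithelial RNA.

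**Figure D2:**
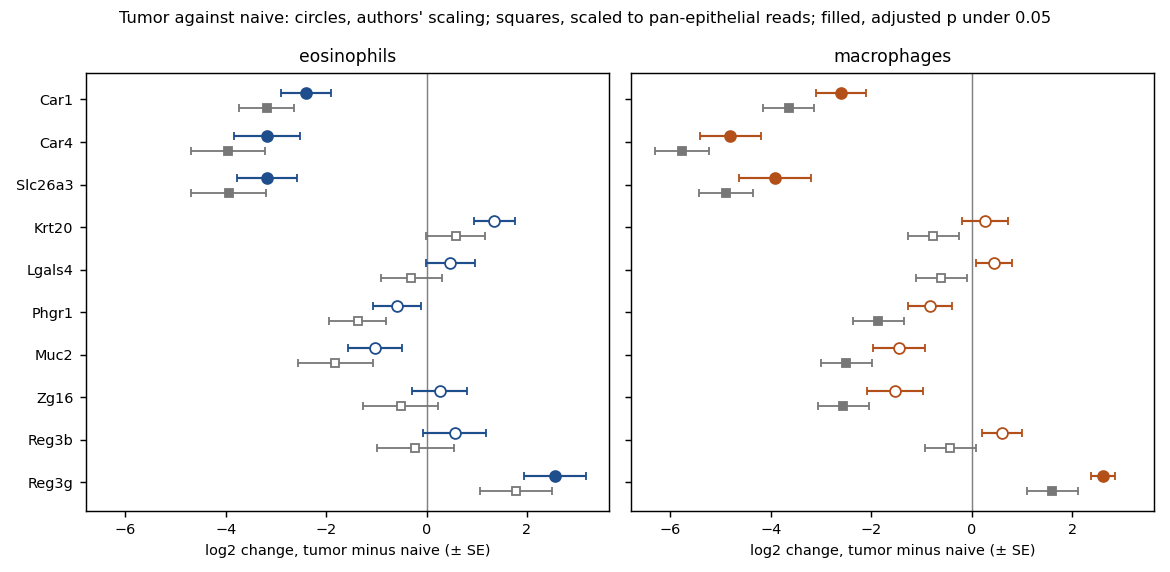
Log2 change from naive to tumor (horizontal axis, ± SE) of the 10 genes (vertical axis) in eosinophils (left) and macrophages (right); circles use the authors' scaling, grey squares values scaled to the pan-epithelial reads of each library, and filled symbols have an adjusted p under 0.05. Car1, Car4 and Slc26a3 are filled on the left side of 0 under both scalings in both panels, and Reg3g lies on the right side of 0 in all 4 sets.

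The pan-epithelial reads themselves were not the same in naive and tumor libraries. In macrophages 8 of the 14 pan-epithelial genes tested were called higher in tumors and none lower, where 8.5% of all genes were called higher. Among the 8 were the tight junction gene Cldn4 (log2 change 3.23), the keratin gene Krt18 (2.16) and the cadherin genes Cdh1 (1.65) and Cdh17 (1.29). The median of the list was 1.11 against 0.03 over all genes tested. In eosinophils limma called none of 15, with 6 at an unadjusted p under 0.05; edgeR and limma-voom also called none, and DESeq2 called 4 higher and 1 lower. The list median in eosinophils was 0.89 against 0.01 over all genes. Car1, Car4 and Slc26a3 thus fell in macrophages while 8 genes of the pan-epithelial list rose.

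When each library was scaled to its own pan-epithelial reads, which lowered the median change of all genes by 0.741 in eosinophils and 1.01 in macrophages on the log2 scale, Car1, Car4 and Slc26a3 were still called lower in both sorts. In eosinophils they changed by -3.18, -3.96 and -3.94, and these were the 3 of the 10 genes called, where 0.555% of all genes were (0.355% lower and 0.201% higher); Reg3g, at 1.79, was not (limma adjusted p = 0.199). In macrophages 7 of the 10 were called, where 28.4% of all genes were. The 6 lower ones were Car1 (-3.65), Car4 (-5.76), Slc26a3 (-4.90), Phgr1 (-1.86), Muc2 (-2.49) and Zg16 (-2.56), with 27% of all genes called lower, and Reg3g was higher (1.61), with 1.35% called higher. In that macrophage fit limma took each gene's spread from the trend over all genes at its mean level and none of it from the gene itself, so its p-values are not printed. Lgals4 and Reg3b, positive under the authors' scaling, were negative under this one in both sorts, and so were Zg16 in eosinophils and Krt20 in macrophages, none of them called.

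**Figure D3:**
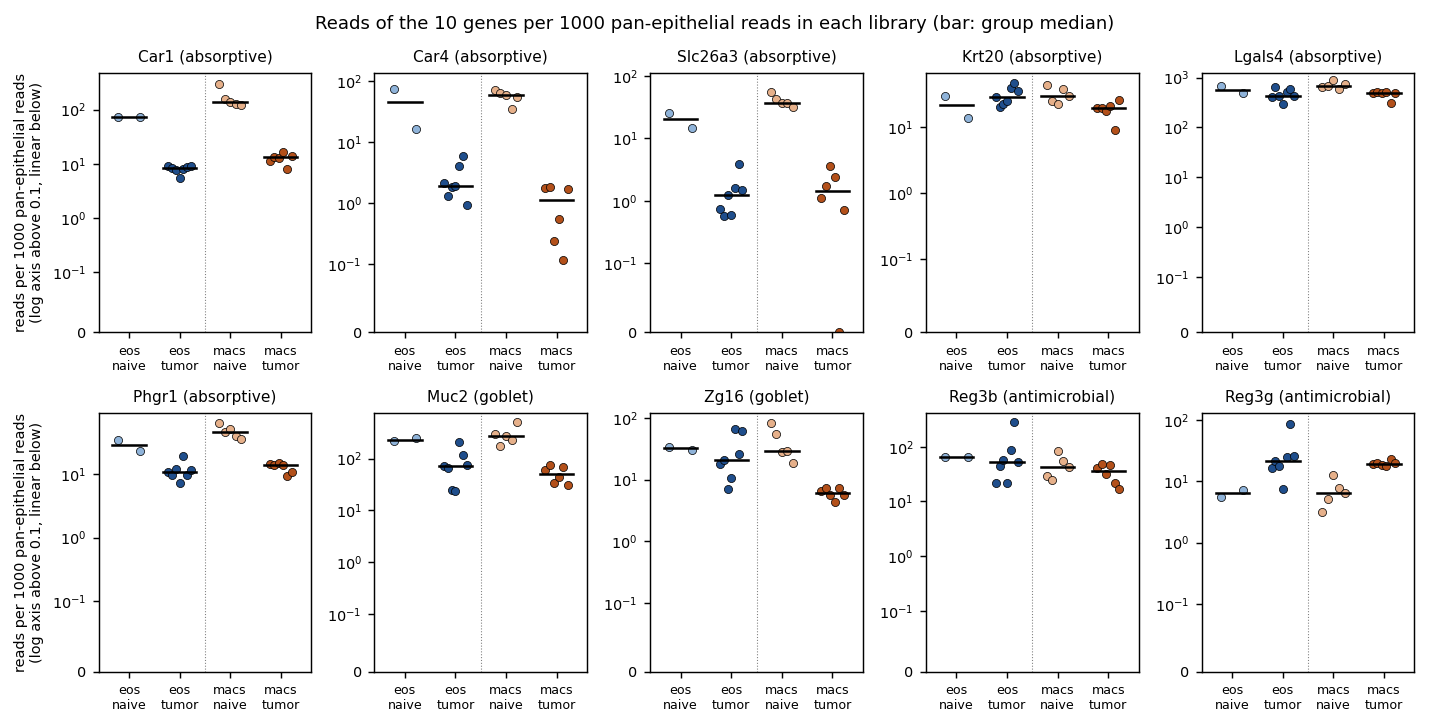
Reads of the 10 genes per 1000 pan-epithelial reads (vertical axis, log above 0.1 and linear below) in each of the 20 libraries by group (horizontal axis; eos, eosinophils; macs, macrophages); points are libraries and bars group medians. Car1 sits at 71.2 to 294 in all naive libraries and at 5.46 to 16.5 in all tumor libraries, whichever cell type was sorted.

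Per pan-epithelial read, the naive and tumor libraries of both sorts could be set side by side. Car1 had 71.2 and 74.0 reads per 1000 pan-epithelial reads in naive eosinophils and 5.46 to 8.97 in tumor eosinophils, and 120 to 294 and 7.87 to 16.5 in naive and tumor macrophages. Reg3g had 5.63 and 7.20 in naive eosinophils, 3.12 to 12.6 in naive macrophages and 18.0 to 23.1 in tumor macrophages, while tumor eosinophils ranged from 7.41 in library 4 to 86.8 in library 6. Phgr1 had 23.4 to 64.3 in naive libraries of both sorts and 7.31 to 19.0 in tumor libraries of both.

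The tumor effect was not shown to differ between the sorts for any of the 10. In a joint limma fit of all 20 libraries, scaled together, 0 of the 10 had a difference of effects past the test, where 3.84% of the 15765 genes did; none had an unadjusted p under 0.05, and edgeR also called none. The widest differences, as the eosinophil change minus the macrophage change, were those of Zg16 (1.69, 95% interval -0.16 to 3.53, adjusted p = 0.325) and Car4 (1.60, -0.51 to 3.72, adjusted p = 0.435). For Car1 the interval was -1.57 to 1.76 and for Reg3g -1.44 to 1.08, which still hold differences of over 2 times either way.

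Levels were also compared between the sorts, on jointly scaled reads. In naive colon Reg3b (log2 difference 2.16 ± 0.61, adjusted p = 0.00971) and Reg3g (1.54 ± 0.51, adjusted p = 0.0253) were higher in eosinophils than in macrophages by limma, 2 of the 10, where 28.5% of all genes were called and 13.8% were higher. In tumors 7 of the 10 were higher in eosinophils and none lower, where 41.3% of all genes were called and 18.2% were higher. The 7 were Zg16 (3.06 ± 0.49, adjusted p = 3e-05), Car4 (2.53), Reg3b (2.0), Krt20 (1.93), Muc2 (1.60), Reg3g (1.36) and Lgals4 (1.19), and Car1, Slc26a3 and Phgr1 did not pass, though Phgr1 (0.98, limma adjusted p = 0.0512) did with edgeR (adjusted p = 0.0296). Scaled to pan-epithelial reads, 2 of the 7 were still called in tumors and neither of the Reg3 genes was in naive colon. The naive result turned on single libraries: 7 of the 10 were called higher in eosinophils without naive macrophage library 1, none without naive eosinophil library 1, and none without naive eosinophil library 2.

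Naive macrophage library 1 was the highest of its group for all 10 genes, and its pan-epithelial sum was also the highest of the group; the part of this in the results was not tested beyond leaving the library out. Over the 20 libraries, deviations from the group means were closely shared by Car1, Phgr1, Lgals4 and Krt20, with r of 0.819 to 0.934 between pairs, and less by Car4 and Slc26a3 (r = 0.547 with each other). Muc2 and Zg16 had r of 0.703. The genes whose deviations were most like the mean of the 6 absorptive genes, among 13198 ranked, were Lypd8 (r = 0.977), an antibacterial protein of the colon surface, Myo15b (0.945), Cdhr5 (0.934), a protocadherin of the brush border, Ceacam20 (0.931) and Tspan1 (0.896); without the 2 libraries farthest from the median r was 0.892 to 0.962. Those most like the goblet pair were Eps8l3 (0.833), Bdh1 (0.819), Klk1 (0.805), Slc17a4 (0.795) and H2-Q2 (0.791), and those most like the Reg3 pair were Bcas1 (0.812), Zfp612 (0.789), Pm20d1 (0.786), Atoh1 (0.781), a transcription factor of the secretory lineage, and Agk (0.771). For the goblet and Reg3 pairs r fell to between 0.489 and 0.755 without the 2 farthest libraries, so these likenesses lean on them.

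Other genes of the same roles moved in part with the 10. Of 30 further absorptive genes, 22 were tested in macrophages, with 8 called lower and 2 higher, and 26 in eosinophils, with 2 lower and 1 higher. Over all genes tested, 8.59% were called lower and 8.5% higher in macrophages, and 2.19% and 2.42% in eosinophils. The counts called higher in this list are not far from those shares, which also apply to the counts of the lists below. The bicarbonate genes were not alone in falling: Selenbp1 fell in both sorts (log2 change -2.57, adjusted p = 0.0128 in eosinophils and -2.52, adjusted p = 0.000263 in macrophages, by limma). The water channel gene Aqp8 (-4.64, limma adjusted p = 0.000294) and the cytochrome gene Cyp2c55 (-4.35, adjusted p = 0.000241) were called lower in macrophages. Both passed the filter there only through the naive libraries, where they were high (means of 65.7 and 70.8, against 0.93 and 1.18 in tumors). Cyp2c55 was also called lower in eosinophils (-4.47, limma adjusted p = 0.0341), again passing only through the naive libraries (mean 39.0, against 1.06 in tumors). Genes that pass in this way can be tested for a fall and hardly for a rise, so they add no support to the falls of the 10. A like limit holds for Car4 and Slc26a3 themselves in macrophages, where the tumor libraries alone would not have passed them. In eosinophils the proton pump gene Atp12a rose (1.77, limma adjusted p = 0.0429). The list median was -0.44 in eosinophils and -0.09 in macrophages. This list is not purely epithelial: the kinase gene Sgk1 made up 35.9 to 65.3% of its reads in macrophages, rose there (0.93, adjusted p = 0.00885) and is known from leukocytes too, as are Plac8 (0.84, adjusted p = 0.0139) and Emp1 (-1.81, adjusted p = 1.03e-07). The eosinophil call of Selenbp1 ended without naive library 1 or 2 (limma adjusted p = 0.0847 and 0.0501). That of Atp12a ended without naive library 2 (1.23, adjusted p = 0.448) and without tumor library 1, 2, 3, 6 or 7 (0.0574 to 0.0758), and that of Cyp2c55 without tumor library 1, 4 or 7 (0.05 to 0.0592).

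Of 26 further goblet genes, 13 were tested in macrophages, with 3 called higher and 3 lower and a median of -0.18. The ribonuclease gene Ang4 (3.06, adjusted p = 0.0016), Spink4 (1.54, adjusted p = 0.014) and the membrane mucin gene Muc13 (1.37, adjusted p = 0.0174) rose, and the kallikrein gene Klk1 (-2.33, adjusted p = 0.00105), Clca1 (-2.05, adjusted p = 0.0335), a secreted component of mucus, and Ccl6 (-0.84, adjusted p = 0.00128) fell. Ccl6, a chemokine also made by myeloid cells, held 54.9 to 96.7% of the list's reads. Klk1 passed the filter only through the naive libraries (mean 47.9, against 6.93 in tumors), so it could be tested for a fall and hardly for a rise. The limma call of Clca1 ended without naive library 1, 2, 4 or 5 or tumor library 4 or 6 (adjusted p = 0.0535 to 0.082), and that of Muc13 without naive library 3 (0.0503). In eosinophils limma called none of 20, with 6 at an unadjusted p under 0.05; limma-voom called none, edgeR 1 lower, and DESeq2 2 higher and 2 lower.

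Host defence genes other than the Reg3 pair rose or were not called. Of the 14 tested among 23, limma called 6 higher and none lower in macrophages and 2 higher and none lower in eosinophils, with medians of 1.43 and 1.81. In macrophages the secreted phospholipase gene Pla2g2a (3.93, adjusted p = 1.18e-07), the nitric oxide synthase gene Nos2 (5.42, adjusted p = 2.52e-06), the lectin gene Itln1 (4.88, adjusted p = 4.68e-05) and the hydrogen peroxide-forming oxidase gene Duox2 (3.54, adjusted p = 6.34e-05) led. In eosinophils Nos2 (4.54, adjusted p = 0.00185) and Duox2 (3.20, adjusted p = 0.00372) rose; the Duox2 call ended without naive library 2 (2.83, adjusted p = 0.0852). Nos2 is also a gene of activated myeloid cells, and it passed the filter only through tumor libraries (naive means of 3.6 in eosinophils and 2.32 in macrophages). Itln1 in macrophages (naive mean 3.03) could not have passed it on naive libraries alone either. Both could be tested for a rise and hardly for a fall, and they are part of the counts and medians above. Lypd8 held 39.8 to 61.5% of this list's reads.

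Genes of crypt base cells and targets of Wnt signalling moved against Car1, Car4 and Slc26a3 in macrophages: 11 of the 15 tested, of 18, were called higher, with a median of 2.37. They were led by Prox1 (3.41, adjusted p = 2.11e-06), Nkd1 (3.75, adjusted p = 4.28e-06), Smoc2 (4.32, adjusted p = 4.88e-05) and the Wnt inhibitor gene Notum (3.27, adjusted p = 0.000407). Smoc2 and Notum (naive means of 0.67 and 2.83), and Myc in eosinophils (below), passed the filter only through tumor libraries, where they were high. Such genes can be tested for a rise and hardly for a fall, and they are part of the counts and medians given here. The hyaluronan receptor gene Cd44, which leukocytes express and which held 63.9 to 97.1% of the list's reads, was the 1 gene called lower in macrophages (-0.96, adjusted p = 0.00313) and in eosinophils (-1.81, adjusted p = 0.03). In eosinophils 1 of 16 rose: Myc had no read in either naive library, which allows up to 1.74 and 3.62 normalised reads, and 7.92 ± 3.69 (SD, n = 7) in tumors, at least 2.19-fold higher. The call of Myc ended in each of the 7 fits without a library in which it passed the filter (limma adjusted p = 0.0581 to 0.249), and the eosinophil call of Cd44 ended without naive library 2 (-1.09, adjusted p = 0.435) or tumor library 1 (0.055). The median in eosinophils was 1.04. Of 14 endocrine and tuft cell genes, 3 were tested in macrophages. There Avil rose (2.35, limma adjusted p = 0.000425) and Dclk1 fell (-1.55, adjusted p = 0.0373). Dclk1 was not called without tumor library 2, 3 or 4 (0.0658 to 0.0743). Avil passed the filter only through tumor libraries (naive mean 3.82) and Dclk1 only through naive ones (tumor mean 6.42). In eosinophils 7 were tested: limma, edgeR and limma-voom called none, 1 had an unadjusted p under 0.05 by limma, and DESeq2 called 1.

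**Figure D4:**
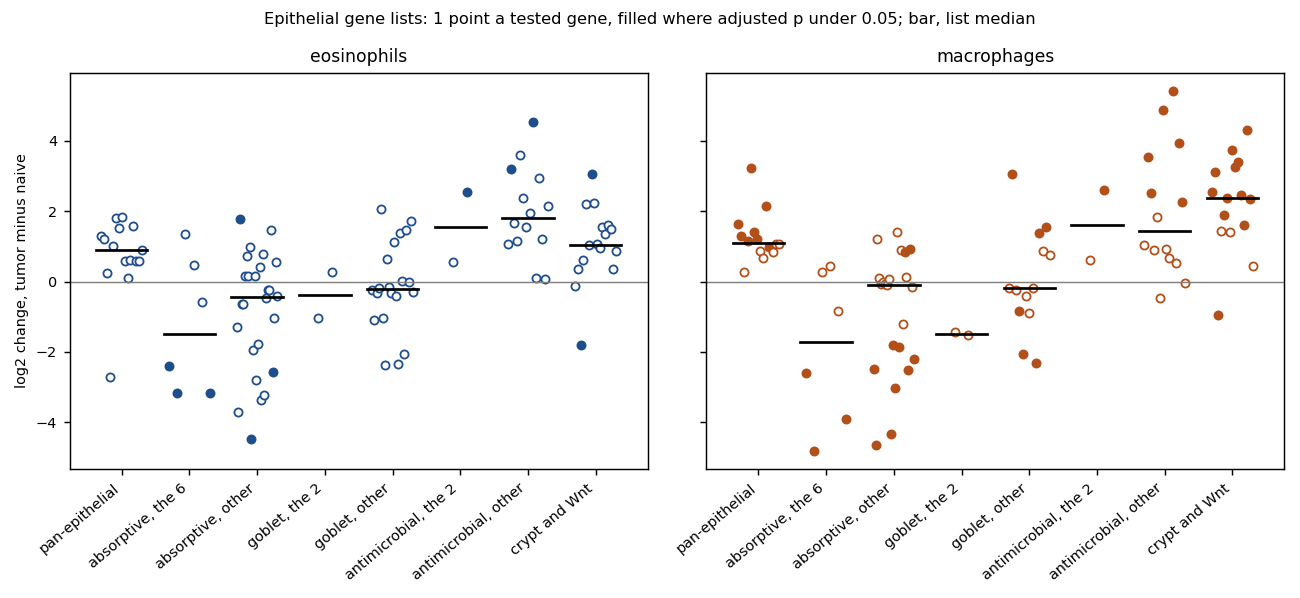
Log2 change from naive to tumor (vertical axis) of each tested gene of 8 epithelial lists (horizontal axis) in eosinophils (left) and macrophages (right); a point is a gene, filled where the adjusted p was under 0.05, and the bar is the list median. The 6 absorptive genes have medians of -1.5 and -1.72 in eosinophils and macrophages, and the crypt and Wnt list has medians of 1.04 and 2.37. The absorptive median in macrophages and both crypt and Wnt medians include genes that passed the filter only with the group where they were high.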

How the data were processed

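RNA of 20 libraries was measured by CEL-Seq, which barcodes the 3′ ends of polyadenylated transcripts, with 3 technical replicates per sample, per the labels' protocols. Per the submitters' processing notes, which give no order, the tools were TopHat2 2.1.0, Bowtie2 2.2.6, HTSeq 0.6.1, DESeq2 1.14.1, FastQC 0.11.5 and Trim Galore, and the mouse build was GRCm38.p5. The sources used here do not say how the replicates were combined or whether counting used strand or molecular identifiers. For each cell type the authors deposited a normalised signal per gene, that is reads divided by a size factor. At least 99.995% of the non-zero values of a library (374526 values in all) were whole multiples of the value of 1 read, within 0.1 read, which gave the reads and the depth. The 27 entries without a gene name (at most 0.1323% of reads) were left out.

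Values were fitted as log2(value + 1) with limma 3.58.1 in R 4.3.3 (moderated with a trend, two-sided) for genes at 10 or more in at least 2 eosinophil or 5 macrophage libraries. Levels and effects across the cell types came from 1 joint fit of recovered reads, scaled by TMM (edgeR 4.0.16) to the median library, for genes at 10 or more in at least 2 libraries. Alternatives were edgeR, DESeq2 1.42.0 and limma-voom on recovered reads, other scalings, pseudocounts and filters, leaving out each library, and the replicate number as a block. Tested on simulated data, changes of 2, 4 and 8 times were recovered for 1.5, 29.9 and 78.8% of changed genes in eosinophils (13054 genes), 4.5, 67.2 and 100% in macrophages (12174) and 0, 13.4 and 47% for the difference of effects (14968). Only genes above a floor of mean reads were changed, and all genes were given the same spread relative to their mean. The rates thus do not describe genes with fewer reads or a wider spread, such as Car1 in naive macrophages (649 ± 865, SD, n = 5). Coordinates come from GENCODE M21 (GRCm38), whose symbols matched 94.4% of the gene names.

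The genes and lists were chosen with earlier results of these data known. Beside the 10 genes, the genes named from a list are the called ones with the smallest p, at most 4 a direction, and the 5 genes with the highest correlation of within-group deviations. Same-numbered libraries were not taken as pairs, since the labels do not say that a number marks a shared mouse or day and their correlations did not all exceed 0.1.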

Additional observations from a re-analysis of the deposited data

Results flagged for a closer look

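In naive macrophages, library 1 stood far above the other 4 libraries, by Dixon's test at the 95% level, for 6 of the 10 genes: Car1 (2186 normalised reads), Car4 (524), Slc26a3 (408), Krt20 (319), Phgr1 (478) and Zg16 (603). In all, 30 combinations of a gene and a group were tested, and chance flags about 1 in 20 groups. The 6 values come from 1 library, which also had the highest pan-epithelial sum of its group (1708 CPM, against 258 to 742 in the other 4) and the highest mitochondrial share (15.9%). The calls in macrophages were the same 4 genes without it.

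The tumor effect differed between the cell types, by the contrast in the joint limma fit, for 2 genes of the further absorptive list. Emp1 changed more positively in eosinophils (difference of log2 changes 1.86, adjusted p = 0.00111) and Sgk1 more negatively (-2.09, adjusted p = 0.0103). Both lost the call when libraries were scaled to pan-epithelial reads (2.24, adjusted p = 0.24, and -1.71, adjusted p = 0.569), and Sgk1 also without naive eosinophil library 2 (-1.13, adjusted p = 0.308).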

How the results depend on the processing

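The 10 genes gave 4 calls in eosinophils and 4 in macrophages under the authors' scaling with limma; pseudocount 5, no filter and TMM scaling gave the same counts. Limma-voom called 2 in eosinophils, and leaving out single libraries gave 1 to 4. DESeq2 called 2 higher and 3 lower in eosinophils, and edgeR 1 higher and 3 lower. In macrophages the count was 4 to 6 without single libraries and 7 with pan-epithelial scaling. The other tools called more there than limma: edgeR and DESeq2 each 1 higher and 5 lower, and limma-voom 1 higher and 4 lower. For eosinophils against macrophages, naive, it was 0 with pan-epithelial scaling and 0 to 7 without single libraries; for the tumor libraries it was 2 with pan-epithelial scaling and 7 to 9 without single libraries. The difference of effects gave 0 throughout. Without the tumor eosinophil libraries 2 and 3, an alternative chosen after seeing the data, 3 of the 10 were called in eosinophils and 6 for eosinophils against macrophages in tumors. Of 662 values of single genes under alternatives other than leaving out 1 library, 571 kept direction and call, 43 lost the call, 14 gained it and 34 changed sign; where no value above shows it, the cause was not tested.

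Signs that changed with pan-epithelial scaling were those of Lgals4 (-0.305), Zg16 (-0.517) and Reg3b (-0.222) in eosinophils; Krt20 (-0.766), Lgals4 (-0.603), Reg3b (-0.428), Sgk1 (-0.12) and Plac8 (-0.205) in macrophages; Lgals4 (0.298), Reg3b (0.208) and Reg3g (0.156) in the difference of effects; Car1 (-1.10), Car4 (-0.638), Slc26a3 (-1.02), Krt20 (-0.604), Lgals4 (-0.304), Phgr1 (-0.703), Muc2 (-0.271) and Zg16 (-0.183) between naive sorts; and Car1 (-0.622), Lgals4 (-0.005) and Phgr1 (-0.202) between tumor sorts. Krt20 in macrophages changed sign with edgeR (-0.186) and DESeq2 (-0.235). The differences of effects of Lgals4 (0.325) and Reg3b (0.134) did with edgeR, that of Lgals4 (0.061) with DESeq2 size factors, and those of Car1 (-0.106) and Phgr1 (-0.056) without the tumor eosinophil libraries 2 and 3. Car1 between naive sorts did with edgeR (-0.25). Without single libraries, differences of effects crossed 0 for Car1 (-0.513 to 0.418), Lgals4 (-0.452 to 0.327), Muc2 (-0.095 to 0.585), Phgr1 (-0.368 to 0.583), Reg3b (-0.425 to 0.104) and Reg3g (-0.364 to 0.118), as did Car4 between naive sorts (-0.277 to 2.2) and Krt20 in macrophages (-0.094 to 0.784).

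With the replicate number as a block, 5 of the 10 were called in eosinophils (Krt20 added, 1.71, adjusted p = 0.0178), 4 in macrophages, 1 between naive sorts (Reg3g lost, adjusted p = 0.0802) and 8 between tumor sorts; over all genes it called 1143 in eosinophils against 598 and 1230 in macrophages against 1968. Under the block, signs changed for Lgals4 (0.478), Reg3b (0.05) and Reg3g (0.075) in the difference of effects and Car1 (-0.154) between naive sorts. The numbers pair nothing by the labels: same-numbered deviations correlated at 0.092 to 0.121 in eosinophils, each best with its own number, -0.195 to 0.017 in macrophages, with 0 of 5 best with its own, and -0.08 to 0.127 between tumor sorts, 3 of 6 best with their own. Over all genes, eosinophils had 1383 calls with DESeq2, 197 with limma-voom and 72 (26 higher) with pan-epithelial scaling; macrophages had 3270 (156 higher) with the last. The difference of effects had 605 calls (278 higher), 400 without the filter, 540 (326 higher) with DESeq2 size factors and 92 (84 higher) with pan-epithelial scaling. The calls between sorts were 290 higher of 6035 in naive and 452 higher of 7808 in tumor libraries with that scaling. Aqp8, Cyp2c55, Klk1 and Dclk1 missed the filter in macrophages when a naive library was left out. Cyp2c55 missed it in eosinophils too without either naive library, so its eosinophil call could not be checked in that way.

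The naive eosinophil group of 2 limits the first comparison, and low reads limit Car4 and Slc26a3 in tumors.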
